A study of Mus musculus with 70 samples.

Results

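Liver mRNA was compared between ZT13 and ZT1 in 16-week-old offspring, that is 1 h after lights off against 1 h after lights on (ZT, zeitgeber time, counts hours from lights on in a cycle of 12 h of light and 12 h of dark). The 12 libraries, 1 per mouse, are 12 of the 70 of the series, and they were chosen by the age and time in their labels alone. All 12 mice were wild-type C57BL/6 males. At each time, 3 came from mothers on a control diet with 15.8% of calories as fat (Ctr) and 3 from mothers on a high-fat diet with 60% (HFD), which the mothers ate for 5 weeks before mating and through pregnancy. After birth dams and litters ate chow, litters were set to 6 pups, and the males were weaned at day 21, so that no group was given the high-fat diet after birth. The study randomised litters across times and took the mice of a group from different litters, so that p-values measure the spread between such mice. Both maternal diets entered the comparison together with diet as a covariate, and a positive log2 fold change means a higher level at ZT13.

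The liver clock is a feedback loop of transcription. CLOCK or NPAS2 pairs with BMAL1, the product of Arntl, and turns on genes through E-boxes, among them the Per and Cry genes, whose proteins then inhibit that pair, and the genes of the REV-ERB proteins (Nr1d1, Nr1d2), which repress Arntl through RORE elements. Proteins of the PAR bZip family (DBP, TEF, HLF) carry the rhythm on through D-boxes to enzymes of metabolism. Mice eat mostly in the dark, so that the hepatocyte passes from the end of feeding at ZT1 to its start at ZT13.

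Counts per mouse summed to between 15095646 and 20100545. The time of day was the main source of variation: the leading principal component held 38.7% of the variance and put the 6 ZT1 mice between -24.7 and -18.0 and the 6 ZT13 mice between 18.9 and 23.2. The Ctr ZT1 mouse of replicate 2 stood apart on the next component (31.6), and the HFD ZT13 mouse of replicate 3 on the one after (-27.0). The labelled tissue carried its markers: 7 of 8 hepatocyte markers were matched by symbol, and they summed to between 104000 and 123000 CPM (read counts scaled to libraries of one common size) with Alb at a median of 80900 CPM. Among the markers of other cells, none of those of Kupffer cells, endothelial cells, lymphocytes, neutrophils, erythroid cells or pancreas passed the test of the time difference. Of 6 cholangiocyte markers, 2 were higher at ZT1 (Krt19 and Sox9), against 7.41% of all genes tested. The uncalled ones were Epcam (log2 fold change -0.63), Spp1 (-0.44), Cftr (-1.705) and Krt7, which went the other way (0.48). The 6 markers summed to 34.9 to 81.8 CPM at ZT1 and 34.1 to 43.7 CPM at ZT13. Of 9 markers of stellate cells and fibroblasts, 3 were higher at ZT1 (Des, Col3a1 and Pdgfrb). The 9 summed to 254 to 346 CPM at ZT1 and 239 to 387 CPM at ZT13. Among the uncalled ones, Col1a1 was at -0.93, Dcn at -0.03, Colec11 at -0.10, Rgs5 at -0.06, Lrat at 0.13 and Reln at 0.16. In bulk tissue, fewer cells of a type and less RNA per cell cannot be told apart.

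Of 17452 genes tested, 2489 (14.3%) differed between ZT13 and ZT1 at an adjusted p below 0.05 (quasi-likelihood test of edgeR, adjusted over all genes tested after Benjamini and Hochberg, which gave every adjusted p printed here). They were 1196 genes higher at ZT13 (6.85%) and 1293 higher at ZT1 (7.41%). A difference of at least 2-fold was found for 216 of them higher at ZT13 (1.24%) and 291 higher at ZT1 (1.67%), and 397 of these 507 genes were protein-coding. All 6 mice of one time lay above all 6 of the other for 1319 genes (7.56%), 1254 of them called. Clock genes had the largest changes in both directions: the mean CPM of Dbp was 71.7-fold and that of Ciart 40.9-fold higher at ZT13, and that of Npas2 198-fold higher at ZT1. Among the most abundant transcripts, the lipogenic gene Thrsp and the cytochrome P450 gene Cyp2a5 were higher at ZT13, and the fatty acid elongase Elovl3 and the desaturase Scd1 were higher at ZT1. The plot of all genes shows where they lie.

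**Figure D1:**
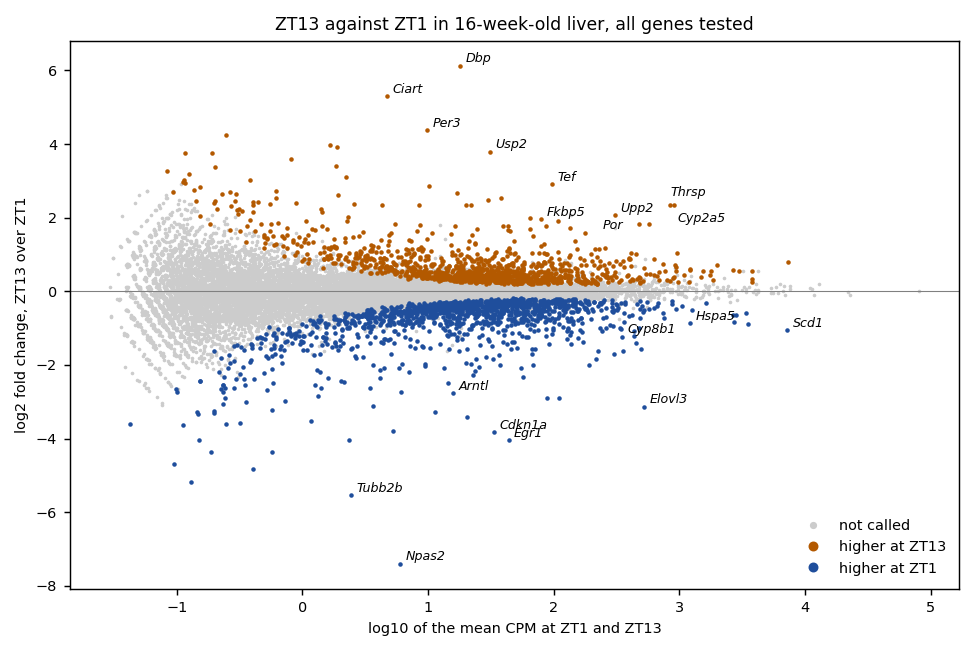
Each point is 1 of 17452 genes, with the log10 of its mean CPM at ZT1 and ZT13 on the horizontal axis and its log2 fold change, ZT13 over ZT1, on the vertical axis. The 1196 genes higher at ZT13 are orange, the 1293 higher at ZT1 are blue, and Dbp (6.13) and Npas2 (-7.40) lie at the extremes.

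Of the 26 genes on a list of the core clock and its output, 14 (53.8%, against 6.85% of all genes tested) were higher at ZT13, 6 (23.1%, against 7.41%) were higher at ZT1 and 6 were not called, with a median log2 fold change of 0.832 against -0.00671 over all genes tested. Promoters of the clock genes are printed here because they hold the elements named above. RefSeq windows on GRCm38.p6, from 250 bases before to 50 bases after a start, were matched by symbol for 20 of the 26 genes, and both strands were searched. The E-box CACGTG stood in windows of 5 clock genes, Ciart, Tef, Bhlhe41 and Per1, all higher at ZT13, and Cry1. The D-box TTANGTAA stood in those of Per3 and Timeless, and the RORE core TAGGTCA in those of Arntl and Nfil3, both higher at ZT1. The stretches from 40 bases before to 40 bases after the elements, or to the start of the gene where it came sooner (Ciart), read as follows, on the strand of the gene, with E-boxes or D-boxes in capitals.
Ciart, chr3:95882229-95882384, minus strand: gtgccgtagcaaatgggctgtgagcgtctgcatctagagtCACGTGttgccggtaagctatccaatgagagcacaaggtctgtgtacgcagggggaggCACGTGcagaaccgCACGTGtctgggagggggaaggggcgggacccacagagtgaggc
Tef, chr15:81802506-81802591, plus strand: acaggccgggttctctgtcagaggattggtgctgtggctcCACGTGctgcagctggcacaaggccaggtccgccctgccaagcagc
Tef at its other start, chr15:81811236-81811321, plus strand: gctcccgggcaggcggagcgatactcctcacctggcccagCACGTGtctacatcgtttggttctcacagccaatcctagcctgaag
Bhlhe41, chr6:145865528-145865613, minus strand: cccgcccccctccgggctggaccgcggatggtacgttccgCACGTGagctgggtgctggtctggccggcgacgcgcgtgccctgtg
Per3, chr4:151044776-151044910, minus strand: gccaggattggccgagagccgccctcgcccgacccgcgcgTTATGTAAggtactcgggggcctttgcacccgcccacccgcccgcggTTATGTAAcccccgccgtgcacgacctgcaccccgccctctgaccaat
Ciart had 3 E-boxes, which began 116, 58 and 44 bases before its start, and Per3 had 2 D-boxes. Among all genes tested that had a window, 11.1% held an E-box, 1.97% a D-box and 2.57% the RORE core. Among the genes at least 2-fold higher at ZT13, E-boxes stood in 31 of 137 (22.6%) and D-boxes in 10 of 137 (7.30%). Among those at least 2-fold higher at ZT1, the shares were 30 of 197 (15.2%) and 4 of 197 (2.03%), and the RORE core stood in 9 of 197 (4.57%) against 2 of 137 (1.46%) of the other direction. These are matches of letters, given as a description with no test, and the windows of Dbp, Usp2, Npas2 and Nr1d2 held none of these elements.

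The transcription factors of the PAR bZip family were all higher at ZT13. Dbp (ENSMUSG00000059824, chromosome 7, 45705088 to 45710203) lay at 0.284, 0.422 and 0.845 CPM (lowest, median and highest of 6 mice) at ZT1 and at 31.6, 33.8 and 46.0 CPM at ZT13, a log2 fold change of 6.13 ± 0.18 (standard error, edgeR adjusted p = 1.43e-12). Tef rose from 17.9, 23.5 and 25.5 to 156, 169 and 182 CPM, and Hlf from 20.9, 27.2 and 30.5 to 49.8, 62.1 and 66.5 CPM. The groups of mice did not overlap for any of the 3 genes. Nfil3, whose product represses through the same D-boxes, went the other way, from 73.1, 82.7 and 102 CPM at ZT1 to 31.8, 36.3 and 40.8 CPM at ZT13 (-1.23 ± 0.08, edgeR adjusted p = 2.76e-08).

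The genes of the inhibiting arm were mostly higher at ZT13. Ciart, a repressor of the CLOCK and BMAL1 pair, had a count of 0 in the lowest ZT1 mouse and at most 0.490 CPM at that time, against 5.45, 9.07 and 13.1 CPM at ZT13 (5.29 ± 0.35, edgeR adjusted p = 2.47e-08). Per3 lay at 0.189, 0.976 and 1.64 CPM at ZT1 and at 16.4, 18.8 and 20.0 CPM at ZT13, and Per2 at 7.54, 8.93 and 10.8 against 40.9, 49.7 and 66.8 CPM. Per1 changed less, from 15.3, 17.6 and 23.4 to 36.2, 40.2 and 46.2 CPM (1.14 ± 0.11, edgeR adjusted p = 1.35e-06). In all 4 genes the lowest ZT13 mouse lay above the highest ZT1 mouse. Cry2 rose by less (0.88 on the log2 scale, no overlap), and Nr1d2 lay at 10.3, 20.4 and 26.6 CPM at ZT1 and at 58.0, 65.8 and 78.0 CPM at ZT13. Bhlhe41 and Bhlhe40, which repress through E-boxes, had log2 fold changes of 2.41 and 0.79. Bhlhe41 was rare, with 30 reads in the 6 ZT1 libraries together and 141 in the 6 at ZT13, and 5 of 6 ZT13 mice were above every ZT1 mouse for Bhlhe40.

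The activating arm was higher at ZT1. Npas2 lay at 6.97, 13.5 and 15.3 CPM at ZT1, while at ZT13 it had a median of 0.0321 CPM and at most 0.234 CPM (-7.40 ± 0.37, edgeR adjusted p = 7.86e-10). Its 6 ZT13 libraries held 6 reads in all, against 1229 at ZT1, so that the size of the fold rests on few reads. Arntl (ENSMUSG00000055116, chromosome 7, 113207465 to 113314126) fell from 24.1, 28.5 and 29.6 CPM to 2.82, 3.88 and 5.25 CPM (-2.77 ± 0.13, edgeR adjusted p = 4.93e-10). Clock changed far less than its partner, from 42.2, 60.1 and 66.9 to 30.2, 33.9 and 37.8 CPM, still without overlap. Rora, whose product turns on Arntl, was lower at ZT13 (-0.56, the groups overlapped). Without the 3 ZT1 mice that had the highest cholangiocyte marker sums, a fit chosen after the data were seen, 815 genes were higher at ZT13 and 901 at ZT1, and Rora was not called (-0.48, edgeR adjusted p = 0.0596). Of other list members, the deubiquitinase gene Usp2 lay at 3.13, 4.25 and 5.60 CPM at ZT1 and 52.9, 56.9 and 62.6 CPM at ZT13, and Wee1, a brake on entry into mitosis, at 1.90, 2.66 and 2.79 and at 16.3, 17.7 and 20.2 CPM. Nr1d1, Dbp and Per3 overlap Thra, Sphk2 and Camta1, and since the use of strand in counting is not given in the sources used here, their counts may hold reads of those genes.

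**Figure D2:**
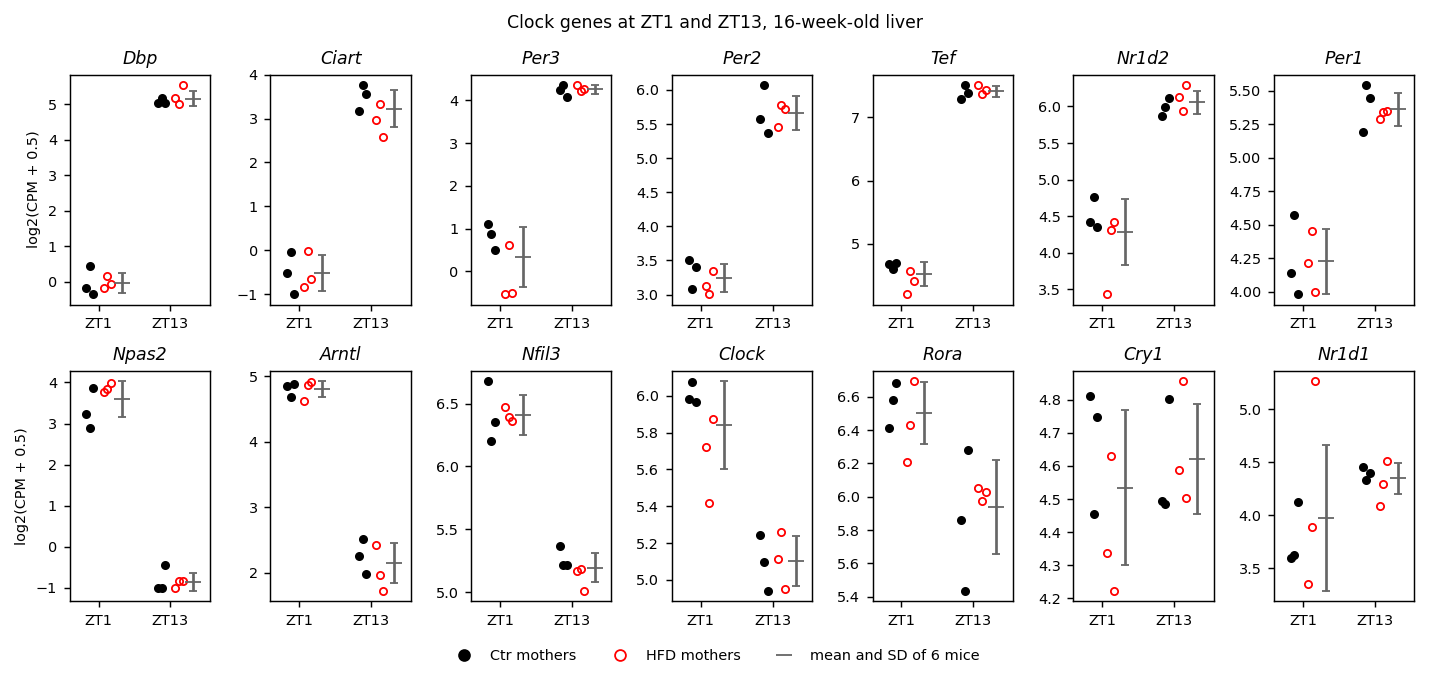
Points are single mice (black, Ctr mothers; open red, HFD mothers) with log2(CPM + 0.5) on the vertical axis, and grey bars are the mean and SD of the 6 mice of a time. The ZT1 and ZT13 mice separate for Dbp, Ciart, Per1, Per2, Per3, Tef, Nr1d2, Npas2, Arntl, Nfil3 and Clock, and overlap for Rora, Cry1 and Nr1d1.

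The 6 list members that were not called were Cry1, Nr1d1, Csnk1d, Csnk1e, Fbxl21 and Timeless. Nr1d1 lay at 9.72, 13.1 and 37.9 CPM at ZT1 and at 16.5, 20.1 and 22.4 CPM at ZT13 (0.26 ± 0.25, edgeR adjusted p = 0.574), and Cry1 at 18.2, 22.9 and 27.6 and at 21.9, 22.9 and 28.4 CPM (0.09 ± 0.11, edgeR adjusted p = 0.692). Both genes nevertheless varied widely at the other times of day. Over the 36 mice of this age, 6 at each of 6 times, Nr1d1 had its highest mean at ZT5 (75.5 ± 9.56 CPM, SD, n = 6) and its lowest at ZT17 (2.13 ± 1.24), and Cry1 its lowest at ZT5 (5.82 ± 1.12) and its highest at ZT21 (55.7 ± 7.56). Dbp, too, was past its highest level at ZT13, with 112 ± 27.1 CPM at ZT9 against 35.4 ± 5.38 at ZT13, and Arntl was lowest at ZT9 (0.901 ± 0.204 CPM). Per2 was still to reach its highest mean, 61.8 ± 5.11 CPM at ZT17.

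**Figure D3:**
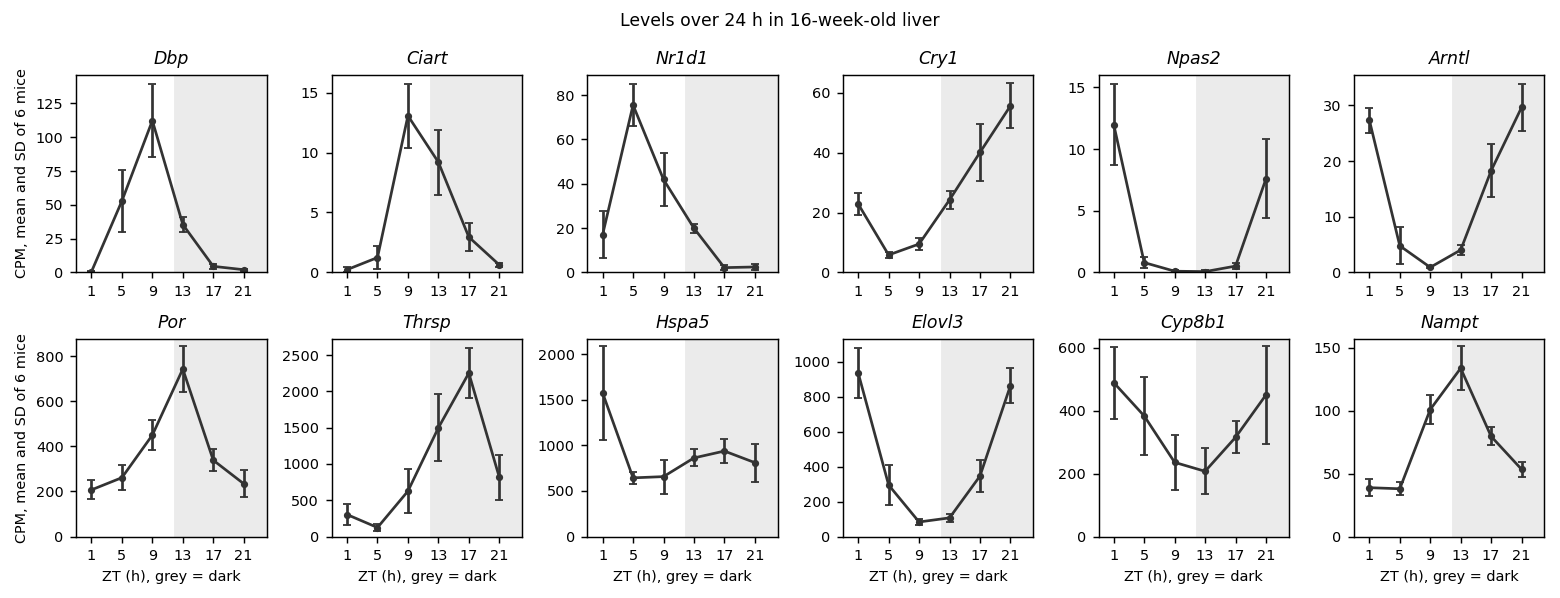
Mean CPM and SD of 6 mice at each of 6 times (horizontal axis, ZT in h, dark phase in grey) for 12 genes. Nr1d1 and Cry1 cross similar levels at ZT1 and ZT13 while their highest means lie at ZT5 and ZT21, and Por and Nampt have their highest means at ZT13.

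The same was asked of all genes with a difference of at least 2-fold. Of 215 such genes higher at ZT13 that had values over the 24 h, 125 had their highest mean at ZT13, 47 at ZT9 and 29 at ZT17, and 130 had their lowest mean at ZT1. Of 288 genes higher at ZT1, 154 had their highest mean at ZT1 and 86 at ZT21, and 201 had their lowest mean at ZT13. These counts use the mice of the comparison as well and are a description. Over the 36 mice and 12146 genes, the genes whose log2 levels followed Dbp most closely were Nr1d2 (Pearson's r = 0.935), Slc38a3 (0.914) and 1700001L05Rik (0.912), and those that followed Arntl included Abtb2 (0.952) and Chka (0.942). The mice share the times of day, so that r describes a common time course.

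Of 26 genes of drug and foreign compound metabolism, many of them known outputs of the PAR bZip factors, 9 (34.6%, against 6.85% of all genes tested) were higher at ZT13, 2 (7.69%, against 7.41%) were higher at ZT1 and 15 were not called (median 0.238). The D-box stood in the windows of 3 of 25 members (12%), none of them called, and of 0 of the 9 members higher at ZT13. Por, the reductase that passes electrons to all microsomal cytochromes P450, lay at 160, 199 and 281 CPM at ZT1 and at 610, 728 and 897 CPM at ZT13 (1.84 ± 0.12, edgeR adjusted p = 2.47e-08). Cyp2a5 lay at 204, 257 and 424 against 1029, 1349 and 1868 CPM, again with no overlap, although reads of the near-identical Cyp2a4 (1.17, not called) may be split between both. Alas1, the rate-limiting enzyme of heme synthesis, was higher at ZT13 by 1.82 on the log2 scale, with 5 of 6 mice above every ZT1 mouse, and Fmo5 by 1.03. The nuclear receptors Nr1i3 (CAR) and Nr1i2 (PXR), named after their values were seen, rose by 0.59 and 0.36. Cyp3a11, the most abundant member, had 2439, 2910 and 4890 CPM at ZT1 and 3027, 3370 and 3704 CPM at ZT13 (0.10, edgeR adjusted p = 0.699). The members higher at ZT1 were Cyp2c29 (-0.39) and Gstm1 (-0.32), and of 25 alternative fits Gstm1 lost its call in 13 and Cyp2c29 in 6.

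Of 27 genes of fatty acid synthesis and glucose use, 9 (33.3%, against 6.85% of all genes tested) were higher at ZT13, 5 (18.5%, against 7.41%) were higher at ZT1 and 13 were not called (median 0.182). Thrsp, a regulator of lipogenesis, lay at 95.2, 298 and 538 CPM at ZT1 and at 991, 1494 and 2070 CPM at ZT13 (2.35 ± 0.29, edgeR adjusted p = 3.10e-05). Pfkfb3, which raises the signal for glycolysis, lay at 14, 22.6 and 33.1 against 56.7, 62.2 and 97.2 CPM, and Elovl6, which elongates palmitate, at 82.1, 93.5 and 122 against 174, 194 and 266 CPM. No ZT13 mouse overlapped the ZT1 mice in these 3 genes. In the other direction, Insig2, which holds SREBP proteins in the endoplasmic reticulum, fell from 261, 343 and 398 to 80.5, 90.7 and 115 CPM (-1.83 ± 0.12, edgeR adjusted p = 2.47e-08). Elovl5, an elongase of polyunsaturated fatty acids, fell by 1.56 on the log2 scale and G6pdx, the entry of the pentose phosphate pathway, by 1.04, both without overlap. Scd1, the most abundant member, had 6288, 8912 and 13610 CPM at ZT1 and 2595, 4840 and 6514 CPM at ZT13, and the groups overlapped (-1.06 ± 0.22, edgeR adjusted p = 0.00316). It was not called without the 3 ZT1 mice of high cholangiocyte markers (-0.73, edgeR adjusted p = 0.0593). Elovl3, which is not on the list, lay at 733, 974 and 1095 CPM at ZT1 and at 73.0, 105 and 143 CPM at ZT13 (-3.13 ± 0.13, edgeR adjusted p = 9.29e-11).

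Of 25 genes of cholesterol synthesis, 7 (28%, against 7.41% of all genes tested) were higher at ZT1 and 0 at ZT13, with a median of -0.273 and 19 negative values. Hmgcs1, an early step of the pathway, lay at 312, 527 and 763 CPM at ZT1 and at 114, 186 and 215 CPM at ZT13 (-1.61 ± 0.19, edgeR adjusted p = 1.65e-05). Pmvk fell from 65.7, 73.9 and 93.0 to 40.7, 42.5 and 53.7 CPM and Sc5d from 461, 626 and 713 to 304, 375 and 386 CPM. The groups did not overlap for these 3 genes. Without the Ctr ZT1 mouse of replicate 2, the count higher at ZT1 was 12.

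Of 28 targets of PPARA, the receptor that turns on fatty acid oxidation, 10 (35.7%, against 6.85% of all genes tested) were higher at ZT13 and 2 (7.14%, against 7.41%) at ZT1 (median 0.163). Acot3 and Acot4, thioesterases of the peroxisome that lie 3542 bases apart, had log2 fold changes of 2.34 and 1.10. Fabp1, the main fatty acid binding protein of the hepatocyte, lay at 1765, 2512 and 2673 CPM at ZT1 and at 3235, 3312 and 3935 CPM at ZT13 (0.54 ± 0.10, edgeR adjusted p = 0.00106). The members higher at ZT1 were Pdk4, which shuts off pyruvate dehydrogenase, at 22.9, 32.9 and 38.8 against 3.77, 6.91 and 15.3 CPM, and Plin2, a coat protein of lipid droplets, at 404, 452 and 522 against 184, 219 and 274 CPM. None of the 4 genes and Fabp1 had overlapping groups. Of 26 genes of gluconeogenesis and amino acid breakdown, 5 (19.2%, against 6.85% of all genes tested) were higher at ZT13 and 2 (7.69%, against 7.41%) at ZT1 (median 0.137). Asl of the urea cycle rose by 0.89 and the transaminase gene Gpt by 0.39. Hal, which breaks down histidine, fell by 0.90, with 1 mouse, HFD ZT13 of replicate 3, far below the rest (48.5 CPM against 184 CPM or more in the others of that time). The stress sensor Sesn1 fell by 0.41 and lost its call in 6 of 25 alternative fits, and Pck1, the most abundant member, was not called (0.19, edgeR adjusted p = 0.188). Without the 3 ZT1 mice of high cholangiocyte markers, Hal had nearly the same fold change and was not called (-0.90, edgeR adjusted p = 0.119), Pck1 was called (0.33, edgeR adjusted p = 0.0293), and 8 members were higher at ZT13 and 1 at ZT1. Without the Ctr ZT1 mouse of replicate 2, 8 members of this list were higher at ZT13.

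Genes that respond to insulin and feeding moved in both directions, 5 of 29 (17.2%, against 6.85% of all genes tested) being higher at ZT13 and 8 (27.6%, against 7.41%) at ZT1 (median 0.00797). Gys2, the glycogen synthase of liver, lay at 82.6, 86.6 and 100 CPM at ZT1 and at 226, 276 and 298 CPM at ZT13 (1.58 ± 0.09, edgeR adjusted p = 3.08e-09). Ppp1r3c, which brings a phosphatase to glycogen, went the other way, from 55.6, 69.9 and 85.4 to 19.5, 26.7 and 34.2 CPM (-1.39 ± 0.13, edgeR adjusted p = 1.57e-06). Neither gene had overlapping groups. The immediate early gene Egr1 lay at 31.6, 95.1 and 122 CPM at ZT1 and at 2.72, 5.18 and 6.92 CPM at ZT13, and Cdkn1a, an inhibitor of the cell cycle, at 23.5, 68.0 and 84.1 and at 2.04, 3.90 and 9.32 CPM. At ZT1 these 2 genes spread over a wide range between mice, yet the lowest ZT1 mouse was above all ZT13 mice for both. Sik1 rose by 1.03 and Igf1, the most abundant member, by 0.41. Of the 27 cell cycle genes, 4 (14.8%, against 6.85% of all genes tested) were higher at ZT13 and 1 (3.7%, against 7.41%), Cdkn1a, was higher at ZT1. Besides Wee1, the cyclins Ccne1 (2.15) and Ccne2 (1.42) rose at low levels, Ccne1 from a median of 0.531 to 2.21 CPM. Plk3, the most abundant member, was not called (0.49, edgeR adjusted p = 0.261), but it was without the 3 ZT1 mice of high cholangiocyte markers (1.02, edgeR adjusted p = 0.027).

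Of 26 genes of the unfolded protein response, which raises folding capacity in that compartment, 15 (57.7%, against 7.41% of all genes tested) were higher at ZT1, 0 were higher at ZT13 and 11 were not called (median -0.42, 24 negative values). The count was 15 without the 3 ZT1 mice of high cholangiocyte markers as well. Hspa5 (BiP), the most abundant member, lay at 1088, 1473 and 2541 CPM at ZT1 and at 747, 835 and 1006 CPM at ZT13 (-0.87 ± 0.16, edgeR adjusted p = 0.00117). Pdia4, a disulfide isomerase, fell from 236, 321 and 481 to 133, 152 and 178 CPM, Calr (calreticulin) from 703, 961 and 1158 to 484, 549 and 709 CPM, and Sdf2l1 from 56.4, 99.4 and 187 to 25.1, 33.2 and 59.5 CPM. The lowest ZT1 mouse stood above all ZT13 mice for Hspa5 and Pdia4, and the groups overlapped for Calr and Sdf2l1. Over the 24 h, Hspa5 was at 1575 ± 513 CPM at ZT1 and between 643 ± 62.3 (ZT5) and 937 ± 131 CPM (ZT17) at the other times. The endoplasmic reticulum stress element (ERSE) was searched on both strands in the same windows, and it stood in 9 of 23 list members that had a window (39.1%), against 0.178% of all genes tested that had one. Of the 13 called members with a window, 6 held it (Calr, Creld2, Hsp90b1, Hspa5, Pdia6 and Syvn1), and so did the uncalled Canx, Derl3 and Dnajc3. The stretches of 4 called genes, chosen after their values were seen because they hold the element, follow with the element in capitals.
Hspa5, chr2:34771985-34772083, plus strand: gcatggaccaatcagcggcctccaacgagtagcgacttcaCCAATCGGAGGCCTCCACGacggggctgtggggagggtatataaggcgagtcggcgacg
Syvn1, chr19:6046492-6046575, plus strand: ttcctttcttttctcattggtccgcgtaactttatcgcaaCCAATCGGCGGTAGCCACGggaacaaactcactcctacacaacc
Creld2, chr15:88819480-88819578, plus strand: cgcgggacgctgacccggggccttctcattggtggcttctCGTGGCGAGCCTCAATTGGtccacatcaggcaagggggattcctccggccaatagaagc
Calr, chr8:84847035-84847133, minus strand: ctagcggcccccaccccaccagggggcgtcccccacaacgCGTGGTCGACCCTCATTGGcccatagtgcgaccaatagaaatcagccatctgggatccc
In Hspa5 and Syvn1 the element reads along the gene, and in Creld2 and Calr it lies on the opposite strand. Syvn1, a ubiquitin ligase of the same compartment, fell by 1.39 on the log2 scale and Creld2 by 1.17.

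Of 22 genes of the heat shock response, which serves folding in the cytosol, 5 (22.7%, against 6.85% of all genes tested) were higher at ZT13, 0 were higher at ZT1 and 17 were not called (median 0.0941). Without the 3 ZT1 mice of high cholangiocyte markers, 5 were higher at ZT13 and 1 at ZT1. The inducible Hspa1a lay at 1.31, 2.53 and 2.90 CPM at ZT1 and at 5.50, 7.26 and 15.5 CPM at ZT13, and Hspa1b at 23.3, 44.4 and 80.3 against 72.7, 108 and 195 CPM. They are near-identical copies that lie 9951 bases apart, so that unique reads of each are uncertain. Rbm3, which is induced by cold rather than by heat, rose from 8.99, 12.3 and 16.5 to 23, 29.9 and 32.4 CPM (1.18 ± 0.15, edgeR adjusted p = 3.78e-05). Hspa8, the constitutive and most abundant member, was not called (0.11, edgeR adjusted p = 0.578). The heat shock element GAANNTTC, searched alike, stood in the windows of 10 of 17 list members (58.8%) and of 7.16% of all genes tested.

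Of 31 factors that build ribosomes, 12 (38.7%, against 6.85% of all genes tested) were higher at ZT13, 0 were higher at ZT1 and 19 were not called, and 30 of 31 values were positive (median 0.27). Ncl (nucleolin), the most abundant of them, lay at 109, 122 and 138 CPM at ZT1 and at 169, 177 and 204 CPM at ZT13 (0.59 ± 0.08, edgeR adjusted p = 5.22e-05). Polr1a, the large subunit of the polymerase that makes ribosomal RNA, lay at 16.9, 19.8 and 21.5 against 21.8, 30.8 and 37.5 CPM, and the ribosomal RNA methyltransferase gene Nop2 at 14.2, 18.3 and 25.7 against 20.9, 34.1 and 43 CPM. The groups did not overlap for Ncl and Polr1a, and 5 of 6 ZT13 mice were above all ZT1 mice for Nop2. In the HFD mice alone, 3 members passed.

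**Figure D4:**
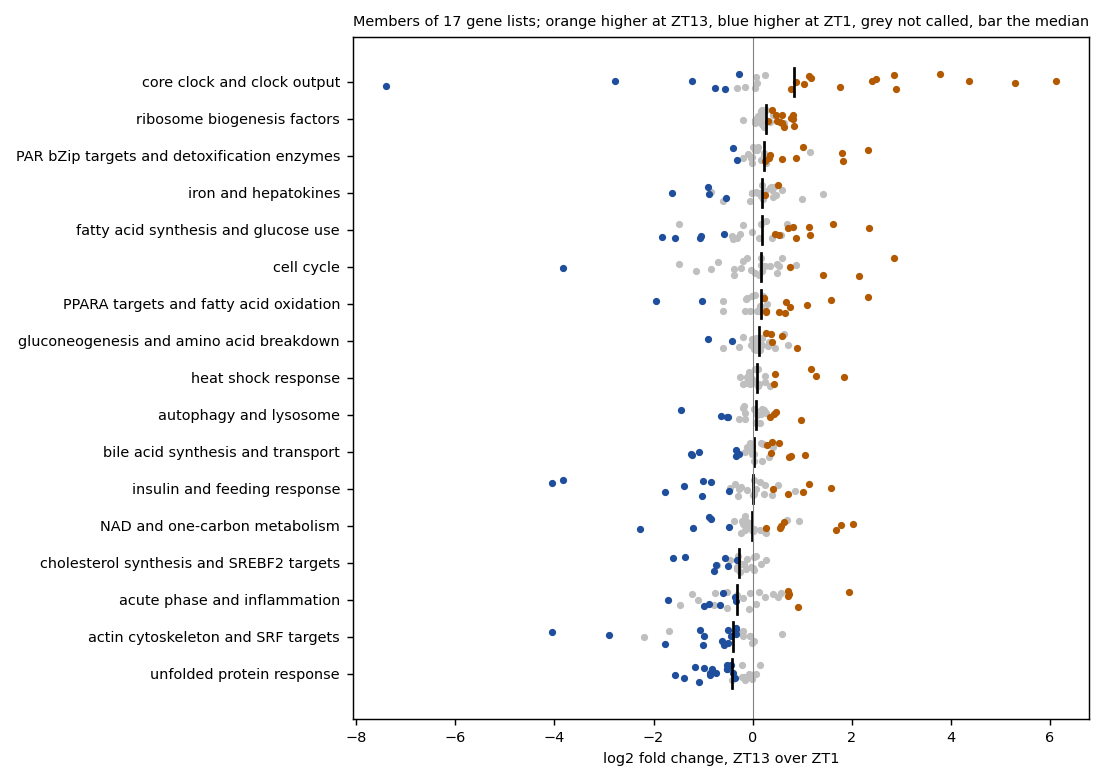
Each point is a member of 1 of 17 gene lists, with its log2 fold change, ZT13 over ZT1, on the horizontal axis; orange points were called higher at ZT13, blue points higher at ZT1, grey points were not called, and the black bar is the median of the list. The medians run from -0.42 for the unfolded protein response to 0.832 for the core clock.

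The bile acid list split, 7 of 26 members (26.9%, against 6.85% of all genes tested) being higher at ZT13 and 6 (23.1%, against 7.41%) at ZT1 (median 0.0314). Cyp7a1, the rate-limiting enzyme of bile acid synthesis and named after its value was seen, was higher at ZT13 (1.07), as were Cyp7b1 of the alternative pathway (0.73), the sterol exporter gene Abcg5 (0.78) and the bile acid importer gene Slc10a1 (0.38). Cyp8b1, which sets the share of cholic acid, lay at 341, 467 and 672 CPM at ZT1 and at 125, 188 and 329 CPM at ZT13 (-1.23 ± 0.17, edgeR adjusted p = 9.32e-05). Abcb11, the bile salt export pump, fell from 482, 598 and 638 to 191, 286 and 337 CPM, and Nr0b2 (SHP), a repressor of Cyp7a1, from 49.6, 72.9 and 123 to 16.7, 35.7 and 50.8 CPM. The groups overlapped only for Nr0b2 among these 3 genes. Scp2, the most abundant member, was at 0.02. Without the 3 ZT1 mice of high cholangiocyte markers, 5 members were higher at ZT13 and 3 at ZT1, and Nr0b2 (-0.93, edgeR adjusted p = 0.0512) and Cyp7b1 (0.55, edgeR adjusted p = 0.0664) were not called.

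Of 26 genes on a list of the actin cytoskeleton and targets of the factor SRF, 14 (53.8%, against 7.41% of all genes tested) were higher at ZT1, 0 were higher at ZT13 and 12 were not called (median -0.39). The member with the largest change was Egr1, given above, which is a transcription factor and no part of the cytoskeleton. Among the tubulins on the list, Tubb2a lay at 130, 161 and 169 CPM at ZT1 and at 15.3, 21.5 and 24.7 CPM at ZT13 (-2.91 ± 0.12, edgeR adjusted p = 1.02e-10), and Tubb4b at 132, 164 and 172 and at 59.6, 79.6 and 91.1 CPM. Tubb2b, a close relative 48740 bases from Tubb2a that is not on the list, had 497 reads in the ZT1 libraries and 9 in those at ZT13 (-5.54). No ZT13 mouse reached a ZT1 mouse in any of these tubulins. Actb, the most abundant member, had a small difference with overlapping groups (-0.34, edgeR adjusted p = 0.0435) and lost its call in 12 of 25 alternative fits. Acta2 and Myl9, genes of contractile cells named after their values were seen, were higher at ZT1 (log2 fold changes of -1.78 and -1.004). Of the markers given above, 2 of 6 of cholangiocytes and 3 of 9 of stellate cells were higher at ZT1 too, against 7.41% of all genes tested. The other markers of both types were not called, and the part of these cells in this list was not tested. Without the 3 ZT1 mice of high cholangiocyte markers, 11 members were called.

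Of 30 genes of the acute phase, 29 were tested, and 5 (17.2%, against 6.85% of all genes tested) were higher at ZT13 and 7 (24.1%, against 7.41%) at ZT1 (median -0.315). The genes of the fibrinogen chains, Fga, Fgb and Fgg, fell together and without overlap, by 0.89, 0.60 and 0.65 on the log2 scale; Fga lay at 4141, 4461 and 5254 CPM at ZT1 and at 2262, 2451 and 2615 CPM at ZT13 (edgeR adjusted p = 4.57e-07). Fkbp5, a target of the glucocorticoid receptor, rose from 26.0, 31.1 and 42.9 to 107, 118 and 158 CPM (1.96 ± 0.12, edgeR adjusted p = 1.31e-08). Saa4 (0.91) and Steap4 (0.71) also rose without overlap, and Hpx, the most abundant member, was not called (-0.06). Of 27 genes of iron handling and hepatokines, 2 (7.41%, against 6.85% of all genes tested) were higher at ZT13 and 4 (14.8%, against 7.41%) at ZT1 (median 0.183). The zinc and iron importer gene Slc39a14 rose by 0.52 and Selenop, the selenium carrier, by 0.26. Selenop lost its call in 6 of 25 alternative fits, among them that without the 3 ZT1 mice of high cholangiocyte markers, where its fold change was 0.25 (edgeR adjusted p = 0.0797). Stat5b, which relays growth hormone, fell by 0.88, Leap2 by 0.90 and the hemojuvelin gene Hfe2 by 0.54. Ahsg, the most abundant member, was not called (0.14). Of 23 genes of autophagy and the lysosome, 4 (17.4%, against 6.85% and 7.41% of all genes tested) were higher at each time (median 0.0617). Bnip3, a receptor of mitophagy, rose by 0.99, Mcoln1 by 0.44 and Becn1 by 0.36, and the autophagy receptor gene Sqstm1 fell by 0.65, Tfe3 by 0.50 and Depp1 by 1.44. Lamp1, the most abundant member, was not called (0.06).

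Of 30 genes of NAD and one-carbon metabolism, 7 (23.3%, against 6.85% of all genes tested) were higher at ZT13 and 5 (16.7%, against 7.41%) at ZT1 (median -0.000713). Nampt, the rate-limiting enzyme of NAD salvage, lay at 33.3, 37.4 and 51.2 CPM at ZT1 and at 99.6, 140 and 145 CPM at ZT13 (1.79 ± 0.10, edgeR adjusted p = 2.87e-09). Nmrk1, which starts NAD synthesis from its riboside, rose from 8.21, 10.7 and 15.6 to 28.3, 38.4 and 44.2 CPM. The groups were apart for both genes. Around homocysteine, Ahcy, which releases it, rose by 0.55, and Cbs and Bhmt, which use it up, fell by 1.21 and 0.84. Bhmt, the most abundant member, varied widely between the ZT1 mice, from 1799 to 5501 CPM, and its groups overlapped.

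Some of the largest changes lay outside the lists. Higher at ZT13 were Pcsk4, a proprotein convertase gene, at 2.82, 5.24 and 5.80 against 25.5, 28.7 and 33.1 CPM, Upp2, a uridine phosphorylase, at 72.8, 127 and 153 against 398, 494 and 611 CPM, and, among abundant genes, Akr1c14 (1.03) and Tkfc (1.00). Gm45819 (3.97), E030018B13Rik (3.93), Cyp21a1 (3.58), A930033H14Rik (3.40) and Pdxp (2.74) rose from 13 to 34 reads in all at ZT1. E030018B13Rik overlaps Klf13 and A930033H14Rik overlaps Rhobtb1. Other named genes overlap measured genes too, among them G6pdx (Ikbkg) and Depp1 (Rassf4). With the use of strand unknown, such counts may hold reads of the overlapped gene. Higher at ZT1 were Pitx3 at 28.1, 38 and 43.9 against 2.04, 3.21 and 5.07 CPM, Spon2 at 16.5, 21.2 and 24.6 against 1.65, 2.08 and 2.57 CPM, Loxl4 (-3.79), Dhrs9 (-3.11), the rare Gm19572 (-4.05), Gm34654 (-3.52) and Defb1 (-3.23), and Crot (-1.41), which feeds peroxisomal acyl groups to carnitine. Several of the genes named here are neighbours. Of 145 genes that were singled out by rule, 12 pairs lay within 100 kb of each other. The rules mostly picked called genes (116 of 131 with a time contrast). Pairs called together therefore say nothing about neighbours in general, and all neighbouring genes were not examined. Pitx3 and Elovl3 on chromosome 19 are 377 bases apart, and Gm45819 and Wee1 on chromosome 7 are 305 bases apart, on the same strand. Gm34654, Gm19572 and Elovl5 follow each other on chromosome 9, and Dhrs9 lies 37828 bases from Abcb11. The ends of Pitx3 and Elovl3 face each other, and the end of Gm45819 points to Wee1. In these pairs, reads beyond an annotated end can fall in the neighbour, which was not tested. Abcb11 and Dhrs9 point away from each other, as do Gm34654 and Gm19572.

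Whether the change differs between HFD and Ctr mice was asked by the interaction of diet and time, which had an adjusted p below 0.05 for 0 of 17452 genes (0%) in edgeR, while 1668 had an unadjusted p below 0.05, and the Wald test of DESeq2 called 31. The lowest adjusted p in edgeR was 0.28. On simulated counts, this test recovered 53 of 100 genes with a true 2-fold diet interaction and 90 of 100 with a 4-fold one. The 0 calls thus do not show that the diets are alike. Fitted in each diet alone, Dbp rose by 6.01 in Ctr and 6.26 in HFD mice, Arntl fell by 2.67 and 2.88, Por rose by 1.68 and 1.99 and Elovl3 fell by 3.12 and 3.14 on the log2 scale. Other genes were less alike. Per3 rose by 3.805 in Ctr and 5.286 in HFD mice (difference 1.47 ± 0.49) and Gm45819 by 3.155 and 5.623 (2.46 ± 0.75). Neither difference was called (edgeR adjusted p = 0.42 for both). The 5 genes of lowest p were mt-Atp6 (HFD minus Ctr log2 difference -2.34 ± 0.38), Slc25a25 (1.08 ± 0.20), Gm16433 (-2.50 ± 0.47), Elovl2 (0.74 ± 0.14) and Gm28661 (-0.99 ± 0.19). Slc25a25, a carrier of the inner mitochondrial membrane, had a log2 fold change of 0.26 in Ctr and 1.36 in HFD mice, and the transcript of the mitochondrial genome mt-Atp6 had 1.54 in Ctr and -0.78 in HFD mice. None of the 5 passed in this edgeR fit, and of 15 fits that left out mice mt-Atp6 passed in 1.

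The same comparison in 11 mice of 4 weeks, none of them among the 12, called 719 of 16468 genes higher at ZT13 (4.37%) and 700 higher at ZT1 (4.25%), from 2 Ctr and 3 HFD mice at ZT13 and 3 of each at ZT1. Of the genes called at 16 weeks, 966 (38.8%) were called at 4 weeks as well, which is 68.1% of the calls at 4 weeks, and 965 of them had the same direction. Of 477 genes with a 2-fold difference at 16 weeks that were tested at 4 weeks, 444 had the same sign. The log2 fold changes of clock genes at 4 weeks were 6.37 for Dbp, 5.86 for Ciart, 2.29 for Per2, -6.72 for Npas2 and -2.004 for Arntl. Of 26 genes of the unfolded protein response, 9 were higher at ZT1 at 4 weeks and 0 at ZT13 (median -0.423), and of 31 ribosome factors 13 were higher at ZT13 and 0 at ZT1 (median 0.478). The cell cycle list had a median of -0.371 at 4 weeks, with 4 members higher at ZT13 and 6 at ZT1, against 0.177 at 16 weeks, and this difference between the lists was not tested.

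The interaction of age and time was called for 12 of 16081 genes (0.0746%), and 1018 had an unadjusted p below 0.05. In 9 genes the ZT13 minus ZT1 difference was lower at 16 than at 4 weeks, and in 3 it was higher. Of the 12 genes, 2 are on the list of insulin and feeding and 1 on that of gluconeogenesis. The calls were not equally stable: G6pc, Trim12c and Ppp1r3c were lost in 16 to 24 of 26 fits that left out mice, and without the 4-week Ctr ZT13 mouse of replicate 2 only 5 genes passed, all of them lower at 16 weeks. Igfbp1, which binds insulin-like growth factors, lay at 352, 509 and 1006 CPM at ZT1 and at 1272, 1331 and 1552 CPM at ZT13 at 4 weeks, whereas at 16 weeks it lay at 476, 648 and 731 and at 160, 327 and 604 CPM (difference of the log2 fold changes -2.27 ± 0.32, edgeR adjusted p = 0.00116). It thus changed direction with age. Ddit4, an inhibitor of mTOR, rose at 4 weeks from 25.2, 32 and 34.2 to 74.3, 158 and 182 CPM and was not called at 16 weeks (-0.30), and Pim3 and the amino acid transporter gene Slc38a2 did likewise, with log2 fold changes of 1.17 and 1.33 at 4 weeks and of 0.18 and 0.11 at 16 weeks. G6pc, the last step of glucose release, rose at both ages, by 1.32 at 4 weeks and 0.37 at 16 weeks. Conversely, Abtb2 and Ppp1r3c were not called at 4 weeks (-0.05 and -0.11) and fell at 16 weeks (-1.49 and -1.39), and Fam222a had 0.49 (not called) and fell by 1.58. Nfil3 was the only member of the clock list among the 12, with a fall of 0.46 at 4 weeks and of 1.23 at 16 weeks. Arrdc3 and Trim12c fell at 4 weeks (-1.72 and -1.14) and were not called at 16 weeks. The tables of the 2 ages were made separately, so that levels at 4 and 16 weeks are set side by side without a test, whereas the interaction compares changes within an age.

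**Figure D5:**
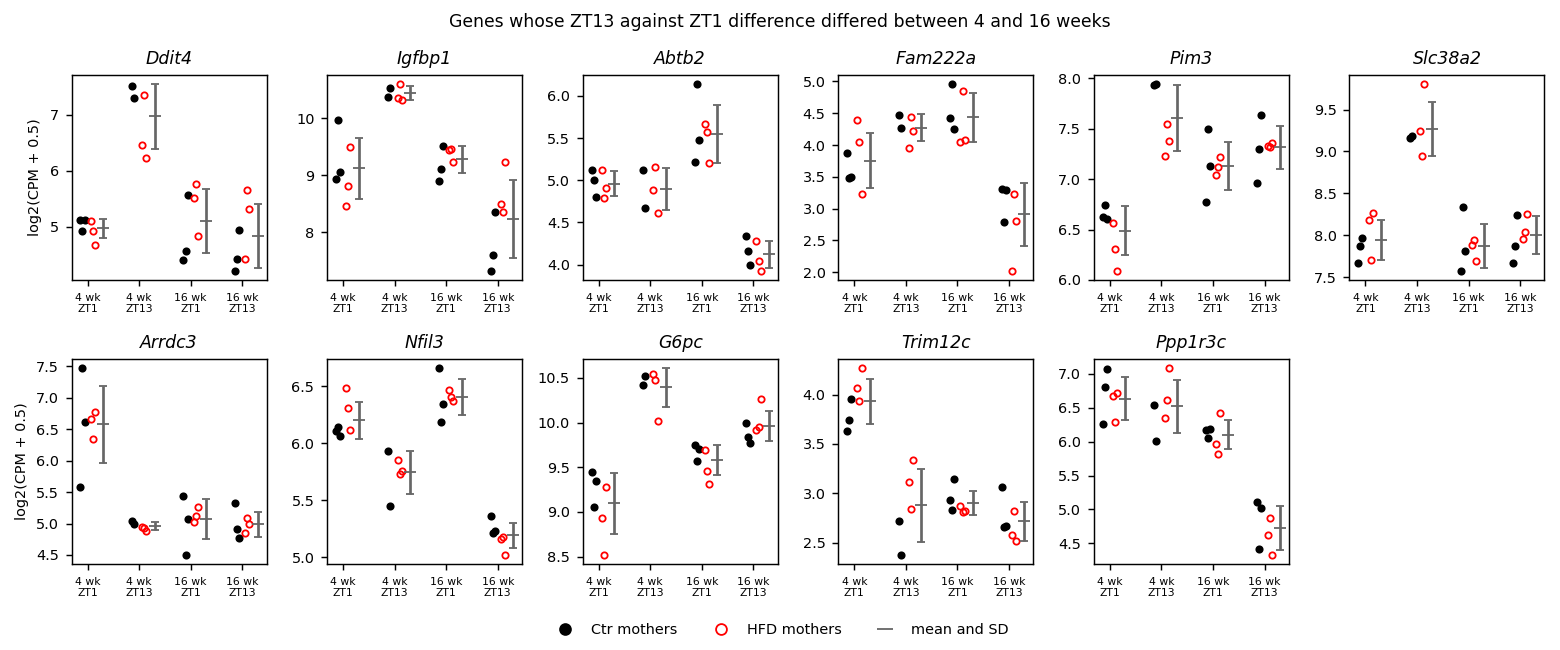
11 of the 12 genes whose difference between ZT13 and ZT1 itself differed between the ages, with log2(CPM + 0.5) on the vertical axis; points are single mice (black, Ctr mothers; open red, HFD mothers) and grey bars the mean and SD of the 5 or 6 mice of an age and time. Igfbp1 is higher at ZT13 at 4 weeks and lower at ZT13 at 16 weeks, and Ddit4 and Slc38a2 rise at 4 weeks alone.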

How the data were processed

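Livers of 70 male offspring were profiled by RNA-seq, and the 12 libraries of 16-week-old mice at ZT1 and ZT13 were compared. The values deposited by the authors are raw read counts per gene, 1 table per age. According to the submitters' processing notes and the methods, adapters were trimmed, reads were aligned to GRCm38 (mm10) with HISAT2 2.0.5, and uniquely mapped reads were counted with featureCounts 1.5.0-p3; whether strand was used is not given in the sources used here. Totals per mouse lay between 15095646 and 20100545. In the 4-week table, 2 count columns that match no sample were not used.

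A gene was tested (17452 of 54532) when reads were found in a share of 0.5 or more of the libraries from Ctr and likewise from HFD mothers. The counts were fitted in R 4.3.3 with the quasi-likelihood F test of edgeR 4.0.16 on TMM-scaled libraries, with diet as a covariate, and p-values were adjusted by Benjamini-Hochberg over all genes tested. A gene was called at an adjusted p below 0.05. CPM are TMM-scaled. Interactions of time with diet (12 mice) and with age (23 mice) were fitted likewise. The scripts were tested on simulated counts. Alternatives were DESeq2 1.42.0, other scaling and filters, each diet alone, a replicate block, all 36 mice of the age, and fits leaving out mice.

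The members and gene lists were chosen with earlier results of these data known. Named were all clock genes, the 12 largest changes in each direction without overlap and with at least 1 CPM, the 8 most abundant genes with a 2-fold change in each direction, up to 3 called members per list and direction and the most abundant member, and the genes of lowest p in each interaction (5 for diet, 5 in each direction for age). Others, including the remaining called genes of the age interaction and the markers, were chosen after their values were seen. Where only part of a list is named, its counts cover all members. Promoter windows came from RefSeq (GRCm38.p6). Values of a few of the genes named by these rules are not reported here.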

Additional observations from a re-analysis of the deposited data

Results flagged for a closer look

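The change from ZT1 to ZT13 differed between the ages by the test of the interaction in 12 genes, 11 of which are given here (quasi-likelihood test of edgeR, adjusted after Benjamini and Hochberg). As log2 change at 16 weeks minus that at 4 weeks, the values were -2.387 for Ddit4, -2.272 for Igfbp1, -1.424 for Abtb2, -2.056 for Fam222a, -0.9759 for Pim3 and -1.198 for Slc38a2. They were 1.621 for Arrdc3, -0.753 for Nfil3, -0.9339 for G6pc, 0.9521 for Trim12c and -1.263 for Ppp1r3c. The adjusted p ran from 0.00116 to 0.0349. In 26 fits that left out mice, Ddit4, Abtb2 and Fam222a lost the call in 1 fit each, Igfbp1 and Slc38a2 in 2, Pim3 and Arrdc3 in 3 and Nfil3 in 7. Ppp1r3c lost it in 16, G6pc in 17 and Trim12c in 24.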

How the results depend on the processing

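Counts of genes moved with the mice fitted and the threshold. Higher at ZT13 were 1196 genes, against 521 in Ctr mice only, 576 in HFD mice only, 626 at an adjusted p below 0.01 and 554 to 1311 when mice were left out. Higher at ZT1 were 1293, against 641, 535, 700 and 670 to 1278. Without replicate 1 of each group (4 mice) 567 and 670 genes were called, and without replicate 3, 554 and 672. At least 2-fold were 216 and 291, against 141 higher at ZT13 in Ctr mice only and 193 higher at ZT1 in HFD mice only, with leave-out ranges of 171 to 252 and 219 to 291. The diet interaction called 0 genes, 319 with no filter, 31 in DESeq2, 1 with the replicate block and 0 to 3 when mice were left out. The fit without the 3 ZT1 mice of high cholangiocyte markers (chosen after seeing the data) lacks the Ctr ZT1 mice of replicates 2 and 3. That leaves the Ctr ZT1 group without replicates, so no diet interaction is given for it. The age interaction called 3 genes higher and 9 lower at 16 weeks, 90 and 100 with no filter, 23 and 31 in DESeq2, and 0 to 5 and 0 to 18 when mice were left out. It called 0 and 5 without the 4-week Ctr ZT13 mouse of replicate 2, 5 and 18 without the 4-week HFD ZT13 mouse of replicate 3, 1 and 5 without replicate 1, 0 and 0 without replicate 2, and 2 and 14 without replicate 3. The cause was not tested. Same-numbered mice did not deviate together (correlations -0.203 to 0.133, and 5 of 12 mice correlated best with their own number). With the replicate number as a block 1148 and 1205 genes were called, and 1 named call was lost. Of 116 named calls, 88 held in all 25 alternatives and none reversed; Gstm1 (13) and Actb (12) were lost most often.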
